A study of Mus musculus with 4 samples.

Results

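Erythroid regulators and membrane genes, 9 genes that mark red cell precursors (Gata1, Gata2, Klf1, Myb, Car1, Ermap, Aqp1, Slc4a1 and Alas2), were followed in single splenocytes of mice carrying a B cell lymphoma. The genes came from a given list, and all 9 of the 9 were found among the 17252 genes of the table. The cells were profiled by Drop-seq, a method in which each cell shares a droplet with a barcoded bead and each transcript is counted once as a unique molecular identifier (UMI). All mice were BALB/c and had received 10000 BCL1 cells, a lymphoma line of mouse B cells, on day 0, and spleens were digested with Liberase on day 13. The 4 libraries were anti-CD20 and anti-CD27 mAb in combination, anti-CD20 mAb alone, anti-CD27 mAb alone, and an isotype control. By the labels, mice were given anti-CD20 on day 4 and then anti-CD27 from day 5 to day 8, whereas a part of the study's methods gives earlier days. Each treatment was 1 library, the number of mice behind it is not given in the sources used here, and the isotype control cells were matched by elimination, since their name in the table is PBS.

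With 1 library per treatment no test between treatments was possible and no p-value is given. Every interval is an exact 95% interval of counting error alone (Poisson for levels, Clopper-Pearson for shares, conditional for ratios), except that differences between shares have Newcombe intervals. Barcodes with 300 or more detected genes were used, 1821 of 3198: 462 in the combination, 506 in anti-CD20, 511 in anti-CD27 and 342 in the isotype control. They held 488771 to 1374241 UMIs per library, with medians of 1044 to 1518.5 UMIs per cell. No barcode sequence was shared between libraries among them. The isotype control library was the shallowest, and levels are therefore given as CPM, the UMIs of a gene per 1000000 UMIs. For all cells of a library CPM is taken over all UMIs, and within a cell class over its non-haemoglobin UMIs.

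Red cell precursors pass from progenitors, which divide and contain little haemoglobin, to erythroblasts, which fill with haemoglobin and then lose their nucleus. GATA2 and MYB act in the progenitors, and GATA1 and KLF1 switch on the genes of haemoglobin, heme synthesis and the red cell membrane. In mice the spleen makes red cells as well as the bone marrow, above all under stress.

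The 9 genes lie on 7 chromosomes of the mouse build mm10 (GRCm38), by GENCODE M21. Gata1, the main erythroid transcription factor, is at chrX:7959260-7978071 on the minus strand. Gata2, its relative of stem cells, progenitors and mast cells, is at chr6:88193891-88207032 on the plus strand. Klf1, a zinc finger activator of adult globin genes, is at chr8:84901928-84905291 on the plus strand, and Myb, a transcription factor of dividing progenitors, is at chr10:21124935-21160984 on the minus strand. Ermap, an erythroblast membrane protein of the immunoglobulin superfamily, is at chr4:119175457-119190011 on the minus strand. Aqp1, a water channel, is at chr6:55336432-55348555 on the plus strand, and Slc4a1, the anion exchanger band 3, is at chr11:102348824-102366203 on the minus strand. The remaining genes encode enzymes: Car1, a carbonic anhydrase of red cells, at chr3:14766216-14808368 on the minus strand, and Alas2, which makes the first step of heme synthesis in erythroid cells, at chrX:150547375-150570638 on the plus strand.

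Promoter sequence from RefSeq (GRCm38.p6, 250 bases before to 50 after a start site) was matched by symbol for 7 of the 9 genes, Gata2 with 2 start sites. Of the genes higher in late cells with an entry, the stretches of Klf1, Ermap and Alas2 are shown and that of Aqp1 is not. That of Myb is shown because it was lower. Each stretch shown runs 5′ to 3′ on the gene's own strand and ends at the base before the first exon. Capitals mark AGATAA or TGATAA, the letters GATA factors bind, and CCNCNCCC, a form of the CACCC box that KLF factors bind, searched on both strands. The spans are chr8:84901732-84901927 (plus strand) for Klf1, chr4:119190012-119190245 (minus strand) for Ermap, chrX:150547167-150547374 (plus strand) for Alas2 and chr10:21160985-21161234 (minus strand) for Myb.
Klf1: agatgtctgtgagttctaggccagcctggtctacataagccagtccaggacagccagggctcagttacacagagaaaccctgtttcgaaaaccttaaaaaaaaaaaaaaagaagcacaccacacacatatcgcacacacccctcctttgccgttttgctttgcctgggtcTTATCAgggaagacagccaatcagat
Ermap: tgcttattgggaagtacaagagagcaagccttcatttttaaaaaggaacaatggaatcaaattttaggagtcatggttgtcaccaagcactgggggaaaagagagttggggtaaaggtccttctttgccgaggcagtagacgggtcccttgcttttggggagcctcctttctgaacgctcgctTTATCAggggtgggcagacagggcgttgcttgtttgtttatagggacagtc
Alas2: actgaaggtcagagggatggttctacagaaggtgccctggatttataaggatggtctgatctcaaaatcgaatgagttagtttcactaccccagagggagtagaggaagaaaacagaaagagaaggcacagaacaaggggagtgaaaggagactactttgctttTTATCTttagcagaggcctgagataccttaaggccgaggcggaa
Myb: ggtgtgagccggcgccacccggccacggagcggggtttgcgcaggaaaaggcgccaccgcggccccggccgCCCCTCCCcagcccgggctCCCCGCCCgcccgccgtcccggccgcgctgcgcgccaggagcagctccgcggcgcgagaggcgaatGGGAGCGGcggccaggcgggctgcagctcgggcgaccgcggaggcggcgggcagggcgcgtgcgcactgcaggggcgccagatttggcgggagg
Each of Klf1, Ermap and Alas2 held 1 GATA match in the stretch, on the opposite strand to the gene, where capitals read TTATCA or TTATCT, and Myb held 3 CCNCNCCC matches. In the whole 300-base windows, the GATA letters were found in 1 window each of Klf1, Ermap and Alas2 and in 18.6% of all 32851 windows. The windows of Aqp1, also higher in late cells, and of Gata1, Gata2 and Myb held none. CCNCNCCC was found in 49.5% of all windows. It had 4 matches in the Alas2 window, 4 in that of Myb, 3 in those of Gata1 and Aqp1, 1 and 6 in those of Gata2, and none in Klf1 and Ermap. AGATAA and TGATAA share the letters GATAA but cannot match at the same bases on 1 strand. A match is a description of letters and not of a bound site.

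Erythroid-like cells were found by clustering the cells on genes other than the 9 and the haemoglobin genes. Clusters 5 (98 cells, led by Car2, Mt2 and Mt1) and 14 (30 cells, with Car2 and Hemgn among its leading genes) were named erythroid-like, 128 cells of 1821. Of 20 erythroid markers listed, none of them among the 9 genes, 18 were in the table and all 18 were at least 4-fold higher in these cells than in the other 1693. These markers were among the genes used to cluster the cells and to name the clusters, so this describes the class and is no independent check of it. Of the 128 cells, 96 had a UMI of 3 or more of the markers, against 42 of 1693 other cells, so that 32 cells carry the name by their cluster alone. All 30 cells of cluster 14 had 3 or more of the markers, against 66 of 98 in cluster 5. The erythroid-like cells were deep, with a median of 3271 UMIs against 1256 in other cells, and 27 of the 51 barcodes with over 3000 genes were among them. Markers of granulocytes also reached 1489 CPM in the erythroid-like cells of the combination, 358 in anti-CD20, 1312 in anti-CD27 and 441 in the isotype control, with all 8 of the 8 markers detected. Markers of stem or myeloid progenitors were at 608 in anti-CD20 and 81.6 to 106 in the other libraries. The part of these other markers in the results below was not tested.

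Of 3609 UMIs of the 9 genes, 3262 (90.4%) fell in the erythroid-like cells. Klf1 had the largest share there, 403 of 408 UMIs (98.8%), ahead of Car1 with 1205 of 1236 (97.5%) and Ermap with 475 of 488 (97.3%). Gata1 had 144 of 156 (92.3%), Aqp1 321 of 350 (91.7%) and Slc4a1 297 of 336 (88.4%). The other 3 genes had a large part of their UMIs elsewhere. Myb had 204 of 291 UMIs (70.1%) in erythroid-like cells, and the rest lay mostly in T-like cells (37 UMIs), granulocyte-like (17), macrophage or monocyte-like (15) and B-like (14) cells. Gata2 had only 28 of 72 (38.9%), fewer than the 36 UMIs (50%) in 7 mast or basophil-like cells. Its level was 40.0 CPM (26.6 to 57.9) in erythroid-like cells, against 1937 CPM (1357 to 2682) in mast or basophil-like cells. Aqp1, which vessels also use, had 6 UMIs in 18 endothelial-like cells, a level of 194 CPM (71.1 to 422).

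**Figure D1:**
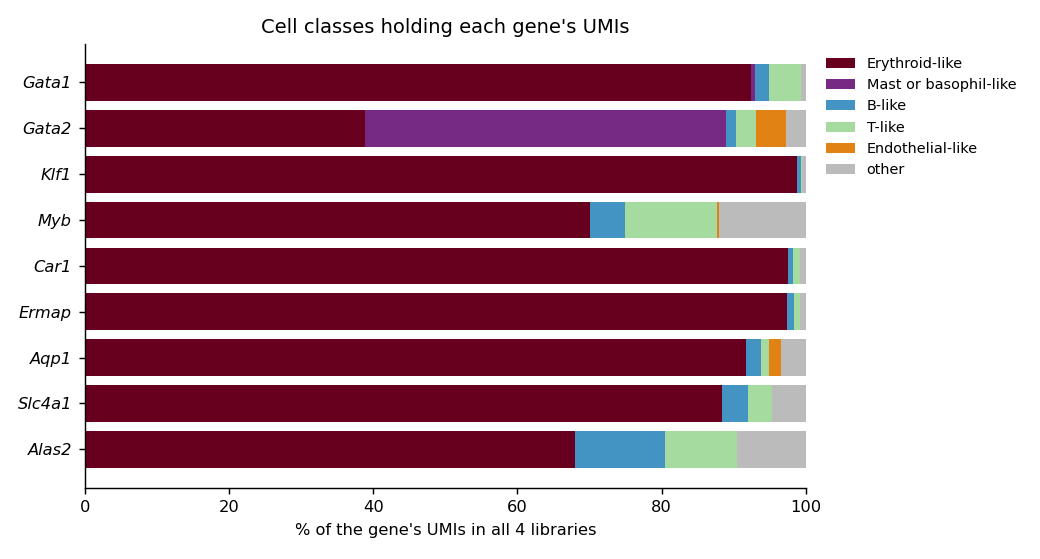
Share of each gene's UMIs (%, horizontal axis) held by each cell class over all 4 libraries, 1 bar per gene. The erythroid-like part runs from 38.9% for Gata2, where mast or basophil-like cells hold 50%, to 98.8% for Klf1.

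Alas2 had 185 of 272 UMIs (68.0%) in erythroid-like cells, and the rest followed haemoglobin in other classes. Per 1000 haemoglobin UMIs, Alas2 had 4.67 UMIs in erythroid-like cells, 4.04 in B-like, 4.20 in T-like and 3.19 to 3.96 in the other classes with a UMI. For Klf1 the same ratio was 10.2 in erythroid-like cells, 0.238 in B-like and 0.156 in T-like cells, a gap that Alas2 did not have. A UMI of Alas2 was found in 21.9% of erythroid-like cells and 3.22% of B-like cells, and one of Klf1 in 55.5% and 0.306%, at median depths of 3271 and 1163 UMIs. In these classes Slc4a1 lay between, with 7.49 UMIs per 1000 of haemoglobin in erythroid-like, 1.43 in B-like and 1.71 in T-like cells. In the other classes with a UMI it ranged from 0.426 to 9.36. The highest value, from 8 UMIs, was in the cells of clusters that took no class.

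Barcodes under the limit of 300 genes, 1377 in all, held far more Alas2 than the cells above it. They had 1497 Alas2 UMIs in 315 barcodes, and 1479 of these lay in 347 barcodes in which haemoglobin made up at least 50% of UMIs. Their Alas2 was 3.78 per 1000 haemoglobin UMIs. Slc4a1 had 144 UMIs under the limit, 121 of them in those 347 barcodes, or 0.309 per 1000 of haemoglobin. The regulators were almost missing there, with 1 UMI of Gata1, 1 of Gata2, 3 of Klf1 and 1 of Myb in the 347 barcodes.

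The first comparison asked how the 9 genes change from early to late erythroid cells. The 128 cells were ranked by the haemoglobin share of their UMIs and divided into early (43 cells, 0 to 0.148% haemoglobin), middle (43 cells, 0.149 to 0.865%) and late (42 cells, 0.946 to 81.1%) groups. Levels are CPM of non-haemoglobin UMIs, so that haemoglobin itself does not dilute the other genes. The early group (median 0.0886%) lay under the medians of B-like (0.244%) and T-like cells (0.201%), and the middle group (median 0.262%) was near them. Shares of B-like and T-like cells also began at 0%. The order between the early and middle groups therefore rests on haemoglobin shares that cells of other types also have. Early cells were all of cluster 5, the cluster that holds every cell named without 3 markers of its own. All 4 libraries were pooled, and the groups differed in their makeup: the late group had 19 combination, 6 anti-CD20, 16 anti-CD27 and 1 isotype control cells, and the early group 29, 0, 12 and 2.

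Late cells had more Klf1, Ermap, Aqp1, Slc4a1 and Alas2 than early cells, and less Myb and Car1. A gene was called where the interval of its late over early ratio excluded 1, among genes with 30 or more UMIs in both groups together. Of the 8 members with enough UMIs, 5 were higher in late cells, where 18% of all 2893 genes tested were called higher, and 2 were lower, where 20.9% of all genes were called lower. Their median log2 ratio was 1.24, with Alas2 at its lower bound, and that of all genes was −0.11.

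**Figure D2:**
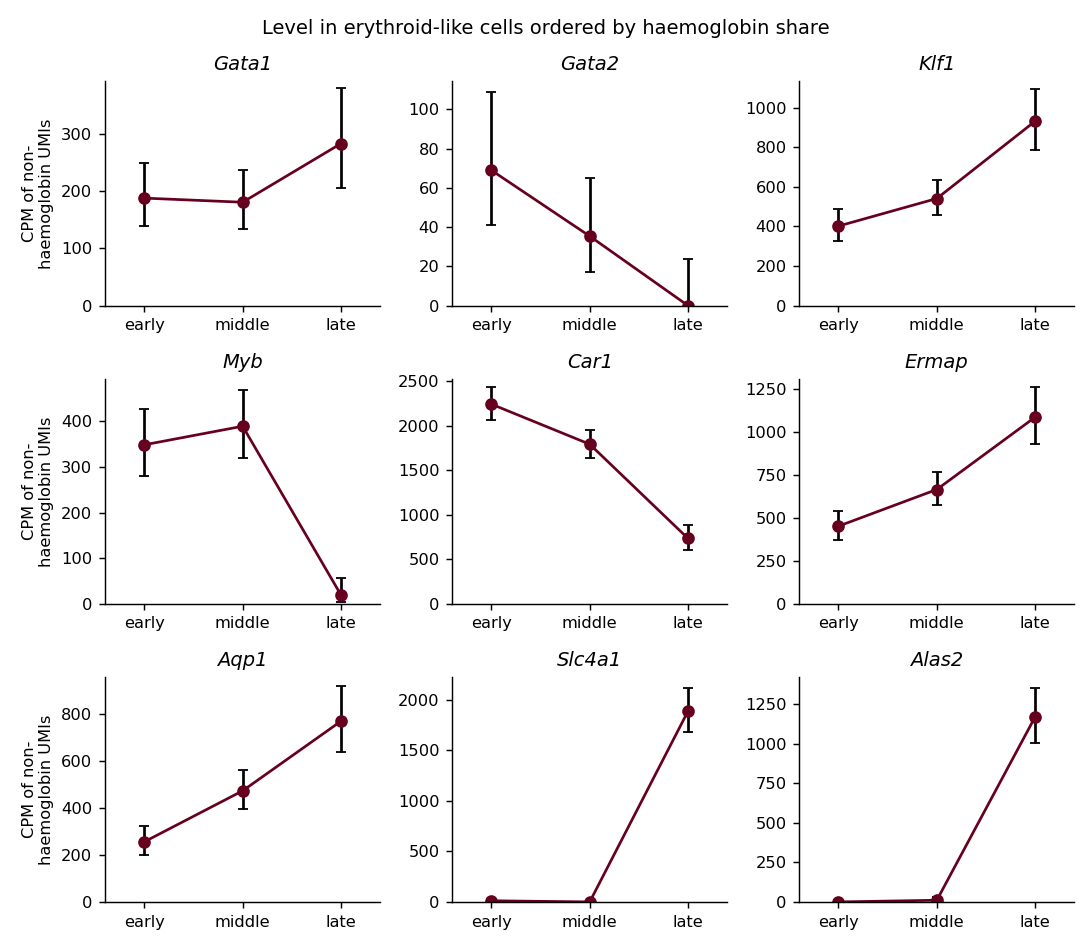
Level of each gene (CPM of non-haemoglobin UMIs, vertical axis) in the early, middle and late groups of erythroid-like cells, with exact 95% Poisson intervals. Gata2, Myb and Car1 are lowest in late cells, Slc4a1 and Alas2 are nearly confined to them, and Klf1, Ermap and Aqp1 are highest there.

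Gata2 was not seen in late cells. It had 18 UMIs in the early group (68.9 CPM, 40.8 to 109), 10 in the middle (35.4, 17.0 to 65.1) and 0 in the late group. With a floor of 3 UMIs over the late group it was at least 3.57-fold lower there than in the early group. Once the counting error of the 18 early UMIs is included, the exact upper limit of the log2 ratio was −1.39, and 18 UMIs were under the limit for a call. None of the 18 erythroid-like cells with a Gata2 UMI had over 0.421% haemoglobin.

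Myb was present in early and middle cells and nearly missing from late cells. Its level was 348 CPM (281 to 428) in early, 389 (320 to 469) in middle and 19.3 (3.98 to 56.3) in late cells, with 91, 110 and 3 UMIs. The late over early log2 ratio was −4.18 (−6.48 to −2.58), the lowest of the members with UMIs in both groups. Of 47 erythroid-like cells with Myb, none had over 1.06% haemoglobin. In the middle group 25 of its 110 UMIs came from 1 cell.

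Gata1 was present in all 3 groups. Its levels were 188 (139 to 248), 180 (134 to 237) and 283 (205 to 380) CPM in the early, middle and late groups, and the log2 ratio of 0.59 (−0.03 to 1.21) was not called. Its highest haemoglobin share was 27.2%, and no UMI was seen in the 8 cells with 50% haemoglobin or more, a group too shallow to show its usual level (0 UMIs allow up to 486 CPM). Without barcodes of over 3000 genes the ratio took the other sign, −0.68, so that no direction can be given for Gata1.

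Klf1 was higher in late than in early cells, with the middle group between them. It had 402 (329 to 487), 541 (459 to 634) and 932 (786 to 1097) CPM in the early, middle and late groups, a late over early log2 ratio of 1.21 (0.84 to 1.59). It was seen in 28 of 42 late and 23 of 43 early cells. After each cell was thinned to 300 non-haemoglobin UMIs these became 15 of 42 late (35.7%) and 4 of 43 early cells (9.30%), while 1 of 653 B-like cells (0.153%) kept a UMI.

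Ermap and Aqp1, which encode membrane proteins, were likewise higher in late cells. Ermap had 452 (374 to 541), 665 (573 to 767) and 1086 (929 to 1263) CPM over the 3 groups, a log2 ratio of 1.27 (0.92 to 1.62). Aqp1 had 257 (199 to 326), 474 (397 to 561) and 771 (639 to 922), a log2 ratio of 1.59 (1.14 to 2.04). Both were already well above their levels in B-like cells in the early group, 4.58 CPM for Ermap and 6.41 for Aqp1.

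Slc4a1 and Alas2 had nearly all of their erythroid-like UMIs in late cells. Slc4a1 had 3 UMIs in early, 0 in middle and 294 in late cells, where it reached 1889 CPM (1680 to 2118). The log2 ratio was 7.36 (5.80 to 9.65). Alas2 had 0, 3 and 182 UMIs, with 1170 CPM (1006 to 1353) in late cells. With a floor of 3 UMIs over the early group this was at least 102-fold higher, and the exact lower limit of the log2 ratio, which includes the counting error of the late UMIs, was 6.36. In early cells Slc4a1 was at 11.5 CPM (2.37 to 33.6), near its 11.0 CPM in B-like cells, and Alas2 at 0, where B-like cells had 31.1 CPM. The groups were ranked by haemoglobin, and Alas2 had 4.67 UMIs per 1000 haemoglobin UMIs in erythroid-like cells and 4.04 in B-like cells. For Slc4a1 these were 7.49 and 1.43. The part of the haemoglobin ranking in the late levels of both genes was not tested.

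Car1 went the other way from the other enzyme. It was the most abundant member in early cells by UMIs, with 2240 CPM (2062 to 2429), then 1790 (1638 to 1953) in middle and 733 (604 to 880) in late cells. The log2 ratio was −1.61 (−1.92 to −1.32). A single cell held 100 of its 585 early UMIs and another 110 of its 506 middle UMIs. Values of different genes are not scaled by transcript length here, and 3′ counting makes them only roughly comparable.

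A finer division by haemoglobin share, chosen after the data had been seen, gave Slc4a1 and Alas2 different levels. Slc4a1 had 5.51 CPM in the 87 cells under 1% haemoglobin, 632 in 16 cells of 1 to 10%, 3891 in 17 cells of 10 to 50% and 7898 (6027 to 10166) in 8 cells of 50% or more. Alas2 had 5.51, 57.5, 1598 and 14084 (11543 to 17020) in the same ranges. In the 16 cells of 1 to 10%, Slc4a1 had 66 UMIs, 38 of them in 2 cells, and Alas2 had 6. Thinned to 300 non-haemoglobin UMIs per cell, Slc4a1 was seen in 0 of these 16 cells and Alas2 in 2, so no order of the genes is read from this range. The position at which 50% of a gene's UMIs had been counted was 24.7% haemoglobin for Slc4a1 and 69.1% for Alas2. For Gata2 it was 0.120%, for Car1 0.151%, for Myb 0.154%, for Gata1 0.222%, for Ermap 0.233%, for Aqp1 0.268% and for Klf1 0.320%, beside 0.168% for all non-haemoglobin UMIs.

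**Figure D3:**
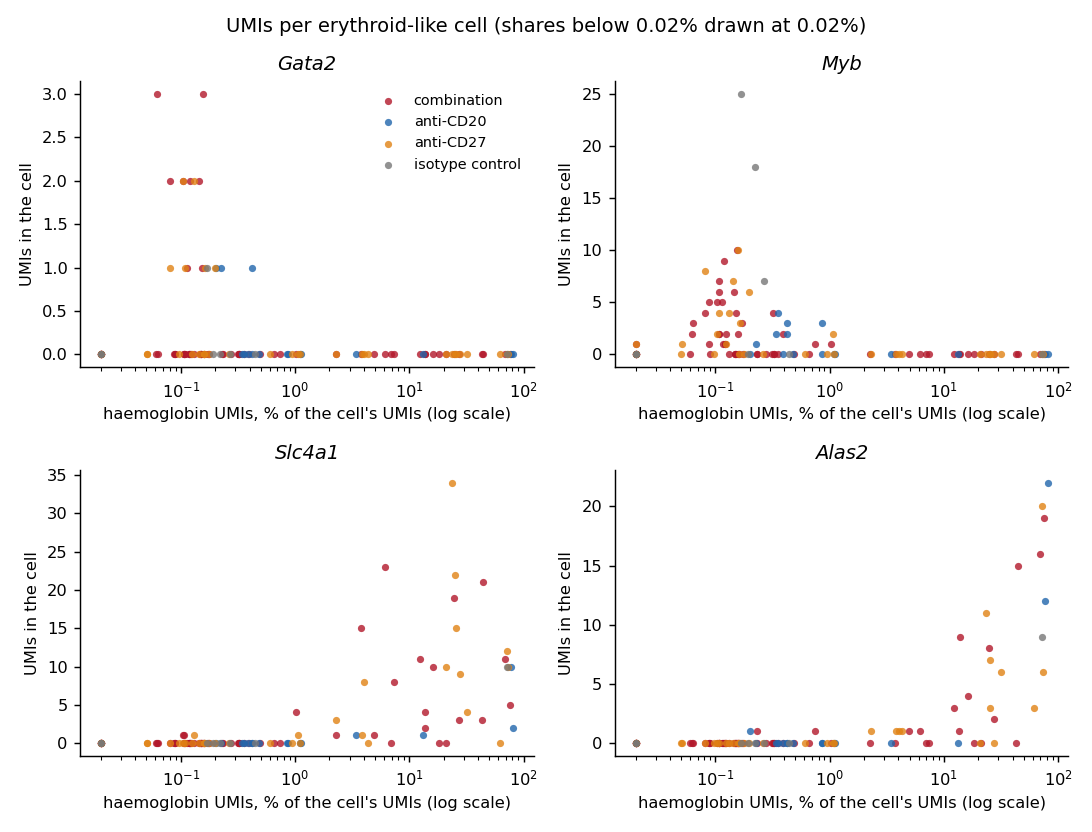
UMIs of Gata2, Myb, Slc4a1 and Alas2 in each of the 128 erythroid-like cells (vertical axes) against the haemoglobin share of the cell's UMIs (%, log scale), coloured by library. Gata2 and Myb are confined to cells at or under 0.421% and 1.06% haemoglobin, and Alas2 UMIs are most numerous above 10%, in cells of all 4 libraries.

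Pairs of the genes were also counted within single cells. Of 18 erythroid-like cells with Gata2, 17 also had Myb and 1 had Alas2. Of 36 cells with Slc4a1, 30 had Klf1, 23 had Alas2 and 5 had Myb. Gata1 and Klf1 were found together in 46 of the 52 cells with Gata1. Deep cells show more genes of any kind, and the part of depth in these overlaps was not tested.

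The directions were seen within single libraries. Only the combination (19 late, 29 early cells) and anti-CD27 (16 late, 12 early) had 10 or more cells in both groups. Late over early log2 ratios were 1.39 and 0.87 for Klf1, 1.23 and 1.29 for Ermap, and 1.71 and 1.46 for Aqp1, in the combination and in anti-CD27. They were −4.78 and −3.90 for Myb, −1.48 and −1.59 for Car1, and 7.34 and 6.91 for Slc4a1. Alas2 had 79 late and 0 early UMIs in the combination and 60 late and 0 early in anti-CD27. Gata2 had 0 late and 12 early UMIs in the combination and 0 late and 6 early in anti-CD27. The interval excluded 1 in both libraries for all of these 8 genes, and held 1 in both for Gata1. Gata2, with 12 and 6 UMIs, was under the limit for a call in each library. The share of all genes called was not counted within single libraries, so this count is not read as a result about the members.

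Other genes of the pathway were counted in the same groups, where 18% of all 2893 genes tested were called higher in late cells and 20.9% lower. Of 14 heme and iron genes with enough UMIs, 14 were higher in late cells (median log2 ratio 2.33), among them Fth1, the ferritin heavy chain (1.64, 1.49 to 1.80), and Glrx5, which serves iron-sulfur cluster assembly (1.39, 1.13 to 1.65). Of 17 membrane and skeleton genes 16 were higher (median 2.62), with the surface protein gene Cd24a at 2.46 (2.20 to 2.72) and Cd47, a surface protein that restrains uptake by macrophages, at 1.28 (0.95 to 1.63). The exception was Add2, a skeleton protein, at 0.33 (−0.56 to 1.20). All 12 enzymes and late genes tested were higher (median 2.18), with the peroxidase Gpx1 at 2.27 (2.11 to 2.43) and the carbonic anhydrase Car2, unlike Car1, at 1.96 (1.81 to 2.11). Of 9 transcription factors and partners 5 were higher and 1 was lower (median 0.75). Lmo2 and Tal1, partners in a complex with GATA1, were at 0.49 (0.04 to 0.93) and 1.49 (0.95 to 2.05), and Bcl11a, a repressor of globin genes, was the one lower, at −0.95 (−1.73 to −0.22). Of 6 progenitor genes 5 were lower (median −1.56), with the nucleolar genes Ncl at −1.34 (−1.51 to −1.17) and Npm1 at −1.77 (−1.99 to −1.56), and Epor, the erythropoietin receptor, was at 0.14 (−0.73 to 0.98). Some genes of these lists also shaped the clusters.

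Genes whose levels over the 19 clusters were most like a member's were sought by Pearson's correlation of log2(CPM + 10). For Klf1 they were Bex4 (r = 0.99), Samd14 (0.98) and 2510003D18Rik (0.98), and for Ermap Bex4 (0.97), Klf1 (0.97) and Samd14 (0.96). For Slc4a1 they were Slfn14 (0.93), Trim10 (0.90) and Mir451 (0.89). Gata1 was most like Sphk1 (0.96) and Gata2 most like Mpc2 (0.86). Alas2 was most like Camsap2 (0.87) and then Hbb-y, an embryonic globin gene (0.87). Car1 followed 1700006J14Rik (0.96), Aqp1 followed Nfia (0.92) and Myb followed Dancr (0.75), the weakest likeness of the 9. Clusters share libraries and depth, and only 2 of the 19 were erythroid-like, so these values are descriptions.

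The second comparison asked how the genes differ between treatments. Erythroid-like cells were 69 of 462 cells in the combination (14.9%, 11.8 to 18.5), 16 of 506 in anti-CD20 (3.16%, 1.82 to 5.08), 35 of 511 in anti-CD27 (6.85%, 4.82 to 9.40) and 8 of 342 in the isotype control (2.34%, 1.02 to 4.56). The combination was 11.8 percentage points above anti-CD20 (8.25 to 15.5) and 8.09 above anti-CD27 (4.19 to 12.1). Anti-CD27 was 4.51 points above the isotype control (1.61 to 7.29), and anti-CD20 0.82 (−1.69 to 3.05). These are shares of cells, and B-like cells were 3 of 462 in the combination against 230 of 506 in anti-CD20, 196 of 511 in anti-CD27 and 224 of 342 in the isotype control, so that more erythroid cells and fewer other cells cannot be told apart. The class also depended on the settings. With the shallower of barcodes 1 base apart left out, it held 73 cells in the combination, 33 in anti-CD20, 46 in anti-CD27 and 13 in the isotype control. The combination was then 9.47 points above anti-CD20, within the interval given. At resolution 0.5, anti-CD20 had 22 erythroid-like cells.

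**Figure D4:**
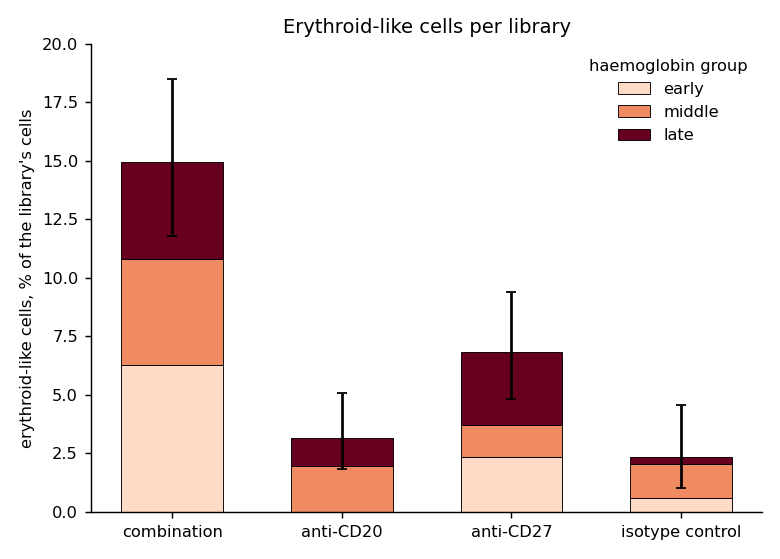
Erythroid-like cells as a percentage of each library's cells (vertical axis), divided into the early, middle and late haemoglobin groups, with the exact 95% Clopper-Pearson interval of the total. The combination is highest at 14.9% and anti-CD20 has no early cell. In barcodes under 300 genes, haemoglobin made up 69.3% of UMIs in anti-CD20 and 45.2 to 45.6% in the other libraries. The part of such haemoglobin in the early and middle counts was not tested.

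In all cells together, as CPM of all UMIs, the 9 genes were higher in the combination than in anti-CD20. Their summed level was 1440 CPM (1377 to 1505) in the combination and 304 CPM (271 to 340) in anti-CD20, a log2 ratio of 2.24 (2.07 to 2.42). Of the 9 genes 7 were 2-fold or more higher, where 10% of 8336 genes were, and 0 were 2-fold or more lower, where 7.68% of all genes were. The median log2 ratio was 2.37 for the members and 0.02 for all genes tested.

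Gata1 had 81 UMIs (58.9 CPM, 46.8 to 73.3) in the combination and 8 (7.92 CPM, 3.42 to 15.6) in anti-CD20, a log2 ratio of 2.90 (1.85 to 4.15). Klf1 had 254 UMIs (185 CPM) against 36 (35.7 CPM), a log2 ratio of 2.37 (1.87 to 2.92). Car1 had 741 UMIs (539 CPM) in the combination and 56 (55.5 CPM) in anti-CD20, a log2 ratio of 3.28 (2.89 to 3.70). Among the membrane genes the log2 ratio was 3.01 (2.43 to 3.65) for Ermap, 2.43 (1.84 to 3.07) for Aqp1 and 2.20 (1.60 to 2.86) for Slc4a1. Myb, with UMIs in other cells too, was at 1.25 (0.72 to 1.80).

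Gata2 and Alas2 were the members not called. Gata2 had 26 UMIs (18.9 CPM) in the combination and 14 (13.9 CPM) in anti-CD20, with a log2 ratio of 0.45 (−0.54 to 1.5). Without the mast or basophil-like cells, a setting chosen after the data had been seen, it was 1.80. Alas2 had 104 UMIs (75.7 CPM) against 75 (74.3 CPM), a log2 ratio of 0.03 (−0.42 to 0.48). Over all barcodes, those under 300 genes included, Alas2 was at −0.81.

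Between anti-CD27 and the isotype control, Gata1, Gata2 and Slc4a1 were 2-fold or more higher in anti-CD27. The summed level of the 9 genes was 857 CPM (803 to 913) in anti-CD27 and 769 CPM (693 to 851) in the isotype control, a log2 ratio of 0.16 (−0.02 to 0.33). Of the 9 genes 3 were 2-fold or more higher, where 7.2% of 7190 genes were, and 0 were 2-fold or more lower, where 6.3% were. The median log2 ratio was 0.69 for the members and −0.09 for all genes tested.

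Slc4a1 had 135 UMIs (122 CPM, 102 to 144) in anti-CD27 and 12 (24.6 CPM, 12.7 to 42.9) in the isotype control, a log2 ratio of 2.31 (1.46 to 3.30). Gata1 had 56 UMIs against 11, a log2 ratio of 1.17 (0.22 to 2.25), and Gata2 31 against 1 (3.78, 1.19 to 9.13). Only 8 of the 31 Gata2 UMIs lay in erythroid-like cells, and mast or basophil-like cells numbered 4 in anti-CD27 and 0 in the isotype control. Klf1 was at 0.79 (0.13 to 1.5), Alas2 at 0.69 (−0.04 to 1.48) and Ermap at 0.08 (−0.40 to 0.57). The others had ratios under 0. Myb was at −0.72 (−1.25 to −0.18), Car1 at −0.35 (−0.63 to −0.06) and Aqp1 at −0.35 (−0.89 to 0.21).

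A pair of cells carried most UMIs of the isotype control. Of its 376 UMIs of the 9 genes, 292 lay in 2 cells, its only barcodes with over 3000 genes (21939 and 26027 non-haemoglobin UMIs). They held 135 of 158 UMIs of Car1, 43 of 53 of Myb, 36 of 45 of Aqp1 and 45 of 52 of Ermap. The same 2 cells held 21 of 24 UMIs of Klf1 and all 11 of Gata1. Of the 12 Slc4a1 UMIs of the isotype control, 10 lay in 1 other cell. With barcodes of over 3000 genes left out of every library, the anti-CD27 over isotype control log2 ratio of the sum was 1.79, and Myb turned to 1.28, Car1 to 1.71 and Aqp1 to 0.96.

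**Figure D5:**
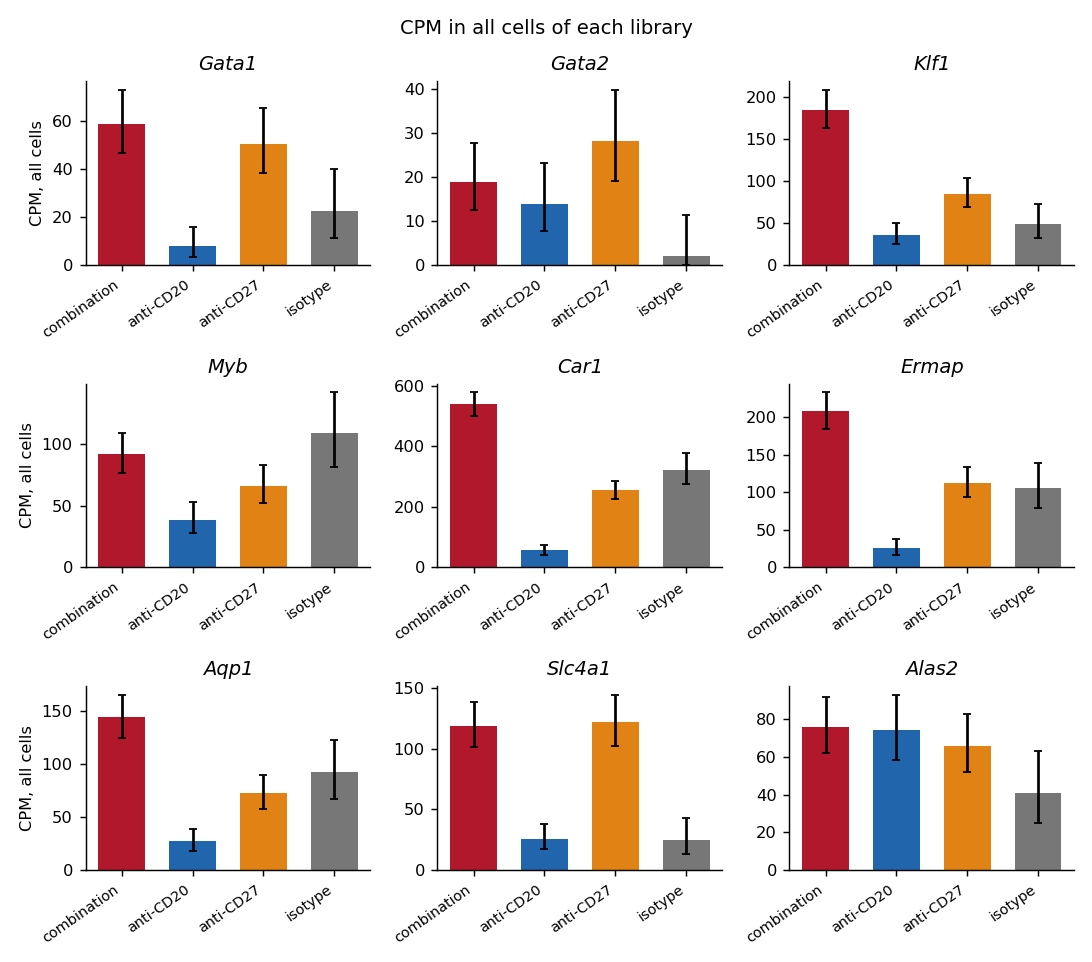
CPM of each gene in all cells (vertical axes) of the combination, anti-CD20, anti-CD27 and isotype control libraries, 1 library each, with exact 95% Poisson intervals of counting error. Alas2 is at 75.7 CPM in the combination and 74.3 CPM in anti-CD20, where Car1 is at 539 and 55.5 CPM.

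The other pairs of libraries share samples with these. Anti-CD20 was lower than the isotype control in the sum (log2 ratio −1.34, −1.56 to −1.12), and without barcodes of over 3000 genes this turned to 0.12. The combination was higher than anti-CD27 in the sum (0.75, 0.64 to 0.86), with Klf1 at 1.12 (0.77 to 1.48), Car1 at 1.09 (0.88 to 1.29) and Slc4a1 at −0.04 (−0.38 to 0.30). Without barcodes of over 3000 genes that sum was at 0.32.

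The number of erythroid-like cells and the level within them were then separated. Within the erythroid-like cells of the combination (69 cells) the 9 genes had 4302 CPM of non-haemoglobin UMIs (4108 to 4503), against 3721 (3233 to 4263) in the 16 cells of anti-CD20, a log2 ratio of 0.21 (0.00 to 0.42). Over the settings tried this ratio lay between −0.46 and 1.02. Of 8 members with enough UMIs, 1 was 2-fold or more higher, where 14% of 3263 genes were, and 1 was 2-fold or more lower, where 5.7% were. The median log2 ratio was 0.22 for these members and 0.10 for all genes.

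Within these cells Klf1 had 585 CPM (515 to 662) in the combination and 626 (436 to 871) in anti-CD20, a log2 ratio of −0.10 (−0.61 to 0.46). Aqp1 had 417 (358 to 483) and 411 (261 to 617), a ratio of 0.02 (−0.61 to 0.71). For both genes the interval allows a difference in either direction. Car1 had 1699 (1578 to 1827) in the combination and 948 (710 to 1240) in anti-CD20 (0.84, 0.44 to 1.27). In anti-CD20, 2 cells held 27 of the 35 UMIs of Klf1 and 43 of the 53 of Car1. Without barcodes of over 3000 genes the log2 ratio was 0.82 for Klf1 and 1.78 for Car1, both outside the intervals given. That of Aqp1 was then 0.29, within its interval. Gata1 was past 2-fold with 179 CPM against 89.5 CPM, but its interval held 0 on the log2 scale (1.0, −0.28 to 2.67).

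Alas2 was the member that was lower, with 189 CPM (150 to 235) in the combination and 626 (436 to 871) in anti-CD20, a log2 ratio of −1.73 (−2.32 to −1.11). The anti-CD20 value came from 35 UMIs in 3 cells, 34 of them in 2 cells. With a limit of 500 genes the ratio turned to 3.11. The combination had 29 early, 21 middle and 19 late erythroid-like cells, against 0, 10 and 6 in anti-CD20. The part of each library's haemoglobin outside erythroid-like cells in these counts was not tested.

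Between the combination and anti-CD27, Slc4a1, Alas2, Gata1 and Myb were lower in the erythroid-like cells of the combination. The sum of the 9 genes had a log2 ratio of −0.33 (−0.45 to −0.21), which turned to 0.33 where cells were classed by their own markers rather than by cluster. Slc4a1 had 333 CPM (281 to 392) in the combination and 824 (689 to 979) in anti-CD27, a log2 ratio of −1.31 (−1.66 to −0.95). Alas2 was at −1.01 (−1.51 to −0.50), Gata1 at −0.85 (−1.38 to −0.31) and Myb at −0.57 (−1.08 to −0.03). Klf1 was at −0.01 (−0.36 to 0.35) and Car1 at 0.00 (−0.20 to 0.21). Late cells were 19 of 69 in the combination and 16 of 35 in anti-CD27, and their part in these ratios was not tested. The isotype control, with 8 erythroid-like cells, was left out of ratios within these cells.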

How the data were processed

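Single splenocytes of 4 libraries, 1 per treatment, were profiled by Drop-seq. According to the methods and the submitters' processing notes, the authors trimmed the reads, used STAR 2.5.0a for alignment to mm10, and took UMI counts for each gene in each barcode from Drop-seq tools. The authors deposited 1 table of raw UMI counts, unfiltered and unscaled: all values are whole numbers, up to 2416. The names of its columns carry the library.

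Barcodes with 300 or more detected genes were kept, with no upper limit and no doublet removal. Scrublet called 13 barcodes (0.714%), which were left out as an alternative. Each cell was scaled to 10000 UMIs and put on a log scale. Clusters came from 2000 variable genes (without the 9 genes and haemoglobin genes), 30 components, 15 neighbours and the Leiden method with resolution 1 (leidenalg 0.10.2, scanpy 1.11.5). A cluster took the class with most listed markers, at least 3, among its top 30 genes by log2(CPM + 50) over the median of clusters. This naming rule was chosen with the clusters already in view. The genes, marker lists and gene lists were chosen with earlier results of these data known.

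UMIs were summed over cells. Ratios between libraries within erythroid-like cells were given where both libraries had at least 10 such cells. Counts of calls used genes with 30 or more UMIs, and a count of 0 had a floor of 3 UMIs. Genes were named as all 9 members, the 3 genes most like each (at least 1 quoted), and the 2 genes with most UMIs of each list, with the lone exceptions to a list (Add2, Bcl11a, Epor) added after their values were seen. One gene of the membrane list is not reported here by name, and the next by UMIs stands in its place. PCR copies without a UMI are not counted, and intervals cover counting error only. The ratio intervals were also run on simulated Poisson counts. Such counts leave out the clumping of UMIs in single cells, so they do not show how well the intervals hold for these data. Alternatives were 300 to 3000 genes, 500 genes, other clusterings, each cell's own markers, barcodes 1 base apart removed, TMM factors from edgeR 4.0.16 (R 4.3.3), other totals, means over cells and other orderings. Computations used Python 3.11.15, numpy 2.4.6 and scipy 1.17.1.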

Additional observations from a re-analysis of the deposited data

Results flagged for a closer look

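The direction of anti-CD27 over its comparator differed with and without anti-CD20 for 3 genes, each pair resting on 1 library a side, and the difference was not tested. Over all cells, Myb had a log2 ratio of 1.25 for the combination over anti-CD20 and −0.72 for anti-CD27 over the isotype control. Car1 had 3.28 and −0.35, and Aqp1 had 2.43 and −0.35. In the isotype control, 43 of 53 UMIs of Myb, 135 of 158 of Car1 and 36 of 45 of Aqp1 lay in 2 cells. Without barcodes of over 3000 genes, anti-CD27 over the isotype control was at 1.28 for Myb, 1.71 for Car1 and 0.96 for Aqp1, and as a mean over cells at 1.06, 1.23 and 1.07, so that the opposite direction is not seen under either setting.

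Barcodes under 300 genes, which the comparisons leave out, held UMIs of 3 genes above the isotype control library, where intervals did not overlap. Ermap was at 88.7 CPM of all UMIs in the combination (51.7 to 142) and 6.72 in the isotype control (0.17 to 37.4). Slc4a1 was at 271 CPM in the combination (203 to 356) and 114 in the isotype control (66.5 to 183). Alas2 was at 2450 CPM in anti-CD20 (2260 to 2652) and 1645 in the isotype control (1446 to 1865), where haemoglobin made up 69.3% and 45.6% of the UMIs of these barcodes.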

How the results depend on the processing

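Of 88 values of sums and shares under alternatives, 68 stayed within the counting interval of the value reported and 20 did not, with a change of sign in 5. Of 365 values for single genes, 305 stayed within it, and 26 changed sign. Of 54 counts of genes, 51 stayed within 1.5 times. The cause of each change was not tested. In erythroid-like cells, the log2 ratio of the sum for the combination over anti-CD20 was 0.44 at 300 to 3000 genes, 0.76 at 500 genes or more, 0.72 without near barcodes, 0.50 at resolution 0.5, 1.02 with each cell's own markers and −0.46 as a mean over cells. For the combination over anti-CD27, at −0.33 in the main setting, it reversed to 0.33 with own markers and was −0.49, of the same sign, as a mean over cells. In all cells, the sum for the combination over anti-CD20 was 1.99 at 300 to 3000 genes, 2.48 at 500 genes or more, 1.97 as a mean over cells and 1.0 over all barcodes. For anti-CD27 over the isotype control it was 1.79 at 300 to 3000 genes, 1.53 as a mean over cells and, with a change of sign, −0.029 over all barcodes, and for the combination over anti-CD27 0.32 at 300 to 3000 genes. For anti-CD20 over the isotype control, at −1.34 in the main setting, it was 0.12 at 300 to 3000 genes, −1.65 at 500 genes or more, 0.30 as a mean over cells and −0.37 over all barcodes. Anti-CD27 over the isotype control reversed for Myb (1.28) and Car1 (1.71) at 300 to 3000 genes and for Myb (1.06) and Car1 (1.23) as a mean over cells. Alas2 within erythroid-like cells, combination over anti-CD20, reversed to 3.11 at 500 genes or more. Over the 9 genes with no limit on UMIs, 5 were higher and 3 lower in late than in early cells. Cells of 50% haemoglobin or more against those under 1% gave 3 members higher and 1 lower. For neither of these counts was the share over all genes counted, so they are not read as results about the members. Thinned to 400 UMIs of all kinds, Slc4a1 was seen in 18 of 42 late and 0 of 40 early cells. Car1 was seen in 3 of 42 late and 20 of 40 early cells. Aqp1 was seen in 5 of 42 late and 5 of 40 early cells, so that its share did not rise in this setting. No paired analysis was possible because each treatment has 1 library, and none could be left out in turn.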
